A study of Mus musculus with 6 samples.

Results

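The genes described here are 7 carriers of glucose and lactate and their partner proteins, of 25771 genes measured in single cells of the mouse testis. They were taken as listed genes and not by a rule on their values, although earlier results of these data were known at the choice. They are the glucose carriers Slc2a1 and Slc2a3, the monocarboxylate carriers Slc16a1, Slc16a3 and Slc16a7, and the ancillary glycoproteins Bsg and Emb. All 7 were found, and each was followed through the 17 fine cell classes deposited with the data. The animals were adult C57BL6 mice, and whole testes were dissociated with enzymes before capture by the 10x Genomics 3′ chemistry. The genotypes are NONO deltaER, in libraries TD, TE and TF, and NONO, in libraries TA, TB and TC. NONO is a nuclear RNA-binding protein of paraspeckles; the nature of the deltaER alteration was not given in the sources used here. In the cell table the groups are named KI and WT, which were read as NONO deltaER and NONO; were this reading wrong, every genotype direction below would turn.

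The seminiferous epithelium splits its sugar metabolism between cell types. Sertoli cells, the somatic nurse cells, sit at the blood-testis barrier, take up glucose and pass lactate on, and meiotic and post-meiotic germ cells are known to use lactate and pyruvate as fuel. Slc2a1 and Slc2a3 encode the facilitative glucose carriers GLUT1 and GLUT3, of which GLUT3 has the higher affinity. Slc16a1, Slc16a7 and Slc16a3 encode MCT1, MCT2 and MCT4, which move lactate and pyruvate together with a proton; MCT2 has a high affinity and is associated with uptake, and MCT4 a low affinity and is associated with export from glycolytic cells. These carriers reach the plasma membrane only with a single-pass chaperone, basigin (Bsg) for MCT1 and MCT4 and embigin (Emb) for MCT2, and male mice that lack basigin are sterile.

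The 6 libraries held 81042216 to 110018960 unique molecular identifiers (UMI, 1 for each captured transcript) in 6261 to 8909 cells, and 650 cell barcodes occurred in more than 1 library. Summed per library, a class held from 21 cells (myoid cells) to 1778 cells (round spermatids of steps 4-5). The labels do not say whether the libraries came from separate animals, so p-values cover only the spread between libraries, which may be technical. Of 12 marker lists, those of Sertoli, Leydig, myoid, macrophage, spermatogonial and round spermatid cells were highest in the class of that name; those of endothelial and erythroid cells were highest in the myoid class. The late spermatocyte list was highest in Lep/Zygo/ePac SC, and the elongating spermatid list in Round ST(Step 7-8) and not in Elongated ST. Round ST(Step 1-2) is placed among spermatocytes by the broad annotation, so class names are used as labels only. Transcripts of elongating spermatids were found in every class: the summed level of 4 such markers was 29200.2 CPM (UMI of a gene scaled to the usual common total per library and class) in Sertoli cells and 6065 CPM in macrophages, and their part in the somatic levels below was not tested. Levels in CPM are given as mean ± SD over libraries, and differences between classes are descriptions with no test, because the classes were made from the same cells.

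The levels of both glucose carriers changed with stage, and Slc2a3 had the higher mean over libraries in every class. Slc2a3 (chromosome 6, 122727809 to 122801640, minus strand, mm10) was among the most abundant transcripts of meiotic cells, and Slc2a1 (chromosome 4, 119108711 to 119137983, plus strand) was low in all 17 classes. Slc2a3 had 1995 ± 88.9 CPM in IPac/eDip spermatocytes, where 30 genes were higher, 1865 ± 123 CPM in Lep/Zygo/ePac spermatocytes and 1702 ± 62.8 CPM in the class of steps 1-2 (SD, n = 6 libraries each). The libraries of Lep/Zygo/ePac overlapped with those of both neighbours, although IPac/eDip was the higher in 6 of 6 libraries.

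The stage course of Slc2a3 began low. Undifferentiated spermatogonia had 84.8 ± 22.2 CPM, the class named Differentiated SG 25.2 ± 19.0 CPM and preleptotene spermatocytes 64.8 ± 19.7 CPM. From preleptotene cells to Lep/Zygo/ePac cells the mean was 28.8-fold higher, in 6 of 6 libraries. After steps 1-2 the level was lower at each of the next stages in all 6 libraries, with 536 ± 30.0 CPM in step 3, 49.1 ± 2.84 CPM in steps 4-5, 19.8 ± 2.43 CPM in steps 5-6, 11.9 ± 0.49 CPM in steps 6-7 and 8.44 ± 1.68 CPM in steps 7-8. Step 4-5 over step 3 was -3.42 ± 0.07 on the scale of log2(CPM + 1), the largest step down of this gene. Elongated spermatids, with 10.6 ± 4.66 CPM, did not differ from steps 7-8 beyond the spread of the libraries. By rank among all genes the late course differed. The genes above Slc2a3 numbered 309 in step 3, 3558 in steps 4-5 and 5010 in steps 5-6. They then numbered 3974 in steps 6-7, 3207 in steps 7-8 and 2356 in elongated spermatids, so the last falls in CPM were not falls in rank.

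In somatic cells Slc2a3 had 352 ± 226 CPM in myoid cells, 183 ± 57.1 CPM in Sertoli cells, 182 ± 94.4 CPM in the class named Unknown, 123 ± 74.9 CPM in Leydig cells and 80.8 ± 52.4 CPM in macrophages, and neighbours in that order overlapped. The share of cells with a UMI was compared after thinning every cell to 2000 UMI. It was 17.9% in Sertoli cells, against 8.5% in macrophages and 97.4% in IPac/eDip spermatocytes; before thinning, the median depths were 1836, 1032 and 32452 UMI per cell. Late spermatocyte markers were found in the same somatic classes, and Slc2a3 amounted to 16.4% of their summed level in Sertoli cells, 11.3% in macrophages and 35.4% in IPac/eDip spermatocytes. The part of free spermatocyte RNA in the Sertoli level of Slc2a3 was not tested.

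Slc2a1, known as the glucose carrier of barrier tissues, had its highest means in myoid cells (26.1 ± 18.5 CPM, from 23 UMI), the class named Differentiated SG (13.2 ± 9.73 CPM, 19 UMI), preleptotene spermatocytes (12.5 ± 7.49 CPM, 28 UMI) and undifferentiated spermatogonia (12.1 ± 3.70 CPM, 86 UMI). Sertoli cells came eighth with 7.15 ± 3.07 CPM from 37 UMI, and every neighbour in the order down to them overlapped. The myoid class also had the highest summed level of 4 endothelial markers (384 CPM, 324 to 458 CPM in NONO deltaER and 261 to 464 CPM in NONO) and of 3 erythroid markers (0 CPM in each NONO deltaER library, 0 to 271 CPM in NONO, 2 of the 3 at 0). Their part in the myoid level of Slc2a1 was not tested. Per library, Sertoli cells had 7.60, 10.1 and 2.63 CPM in TD, TE and TF of NONO deltaER, and 8.35, 10.0 and 4.24 CPM in TA, TB and TC of NONO, so the genotypes overlapped. The gene was lowest in late meiosis: IPac/eDip spermatocytes held 1 UMI of Slc2a1 in 46378456 UMI, and step 3 held 5 UMI in 101073497. It then returned to 1.11 ± 0.34 CPM in steps 4-5 (151 UMI) and 3.32 ± 1.05 CPM in steps 5-6 (231 UMI), with no overlap between the libraries of those stages, and was back at 0.66 ± 0.28 CPM in steps 6-7.

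Of the UMI of the glucose carriers, Slc2a1 made up 13.3% ± 5.65 in undifferentiated spermatogonia. Its share was 38.9% ± 23.4 in the class named Differentiated SG, from 58 UMI of both carriers. It was 16.9% in preleptotene cells, 0.05% in Lep/Zygo/ePac cells and 14.1% in steps 5-6. In Sertoli cells the share was 4.33%, and the other 95.7% of the captured glucose carrier transcripts were Slc2a3. Among 783 Sertoli cells deep enough for thinning, 2 had both carriers, 11 had Slc2a1 alone and 144 had Slc2a3 alone.

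**Figure D1:**
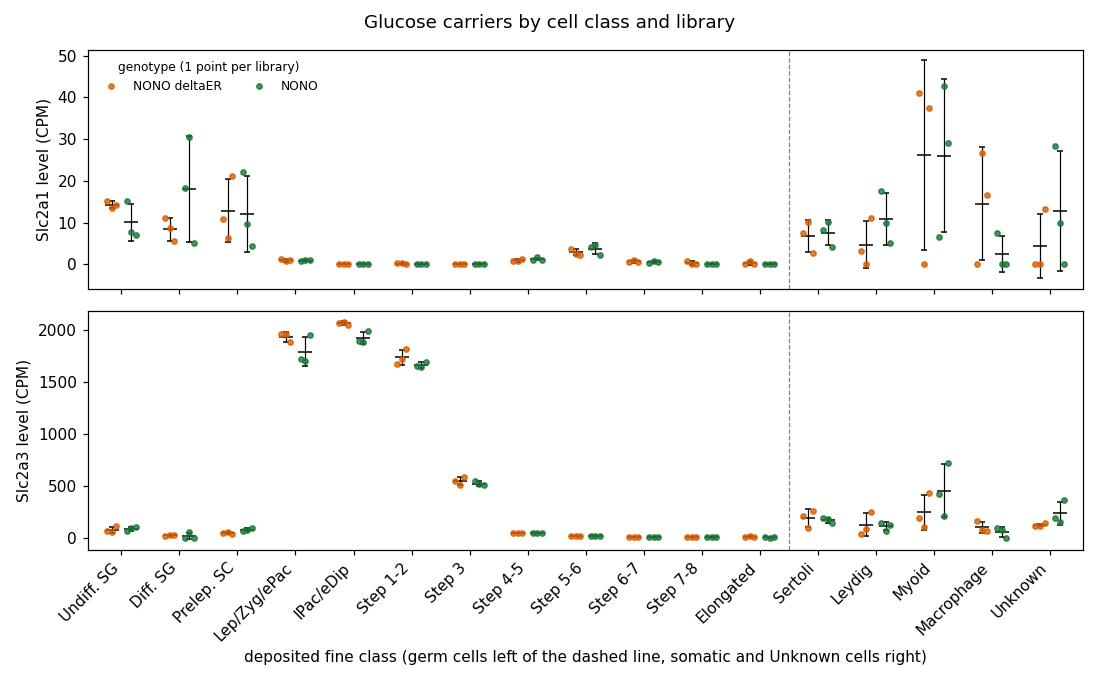
Level of Slc2a1 (top) and Slc2a3 (bottom) in CPM, on linear axes, in each of the 17 deposited classes; each point is 1 library, NONO deltaER left of NONO, with the mean and SD over 3 libraries in black. Slc2a3 stands at 1646 to 2082 CPM in 3 neighbouring classes, and Slc2a1 stays at or below 42.7 CPM in every library.

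The monocarboxylate carriers differed in their course along the germ line. Slc16a1 (chromosome 3, 104638668 to 104658462, plus strand) led in the class named Differentiated SG and in preleptotene cells, Slc16a7 (chromosome 10, 125219270 to 125389465, minus strand) was the leading one in undifferentiated spermatogonia and again from Lep/Zygo/ePac cells on, and highest in round spermatids, and Slc16a3 (chromosome 11, 120948480 to 120960868, plus strand) had means of at most 21.9 CPM in the 17 classes. Of the UMI of all 3 carriers, Slc16a1 held 28.5% and Slc16a7 67.9% in undifferentiated spermatogonia. Slc16a1 held 77.7% in the class named Differentiated SG and 69.2% in preleptotene cells, and Slc16a7 held 91.8% in Lep/Zygo/ePac cells and 98.5% in steps 5-6.

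Slc16a7 had 1204 ± 61.8 CPM in steps 5-6, where 92 genes were higher, 859 ± 22.2 CPM in steps 4-5, 399 ± 20.5 CPM in steps 6-7 and 319 ± 13.7 CPM in step 3, and these 4 classes did not overlap. Before that it declined over 3 classes, with 154 ± 5.88, 134 ± 2.92 and 113 ± 4.96 CPM in Lep/Zygo/ePac, IPac/eDip and steps 1-2, lower at each step in 6 of 6 libraries. Undifferentiated spermatogonia had 119 ± 52.5 CPM, with 6 round spermatid markers at a summed 369.6 CPM in the same class. The level was lower in the class named Differentiated SG, with 19.1 ± 16.2 CPM, and in preleptotene cells, with 24.1 ± 9.39 CPM, and again late in the spermatid series, with 68.3 ± 6.76 CPM in steps 7-8 and 18.0 ± 1.97 CPM in elongated spermatids. The peak of Slc16a7 thus lay 4 classes later than that of Slc2a3, and the levels crossed between step 3, where Slc2a3 was the higher in 6 of 6 libraries, and steps 4-5, where Slc16a7 was the higher in 6 of 6.

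The somatic classes had Slc16a7 at 305 ± 72.0 CPM (myoid), 250 ± 99.6 CPM (Leydig), 214 ± 61.3 CPM (Sertoli), 191 ± 54.6 CPM (Unknown) and 167 ± 104 CPM (macrophage), with overlap between all neighbours. At 2000 UMI per cell, 25.1% of 783 Sertoli cells and 27.2% of 47 macrophages had a UMI of it (as means over libraries), so the Sertoli share was not above that of a cell type outside the epithelium. Slc16a7 amounted to 67.4% of the summed level of 6 round spermatid markers in Sertoli cells, 68.0% in macrophages, 27.0% in steps 4-5 and 58.0% in steps 5-6. The part of spermatid RNA in these somatic levels was not tested.

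Slc16a1 was highest in Leydig cells, the testosterone-making cells between the tubules, at 85.7 ± 11.4 CPM (180 UMI), with Sertoli markers at 1331 CPM in the same class, against 4524 CPM in Sertoli cells. Next came the class named Differentiated SG with 67.9 ± 19.5 CPM, Unknown with 58.2 ± 39.9 CPM, preleptotene cells with 55.5 ± 15.5 CPM, Sertoli cells with 47.3 ± 6.30 CPM and undifferentiated spermatogonia with 44.6 ± 7.36 CPM, and each of these neighbours overlapped. Lep/Zygo/ePac cells had 10.8 ± 1.85 CPM, and step 3 had 0.33 ± 0.06 CPM from 33 UMI. In steps 5-6 Slc16a1 was back at 8.43 ± 1.79 CPM, 7.40-fold above steps 4-5 and higher there in 6 of 6 libraries, and steps 6-7 had 3.96 ± 0.35 CPM.

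Slc16a3 was followed from few UMI in the somatic classes. Its means were 21.9 ± 20.6 CPM in myoid cells (17 UMI), 18.7 ± 15.8 CPM in Leydig cells (34 UMI), 16.4 ± 19.7 CPM in macrophages (6 UMI) and 7.64 ± 3.61 CPM in Sertoli cells (39 UMI). In germ cells it was lowest in preleptotene cells (1 UMI in 2043880), had 2.95 ± 0.42 CPM in Lep/Zygo/ePac and 8.49 ± 0.93 CPM in IPac/eDip spermatocytes, and then stayed between 9.40 ± 1.90 and 14.4 ± 2.65 CPM in the later germ cell classes. Its rank among all genes rose late in that range, with 6858 genes higher in steps 5-6 and 2215 in elongated spermatids. The share of cells with a UMI of Slc16a3 after thinning was 1.3% in Sertoli cells and 2.8% in steps 4-5. In elongated spermatids, where little Slc16a7 was left, Slc16a3 was 36.2% of the UMI of the 3 carriers.

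**Figure D2:**
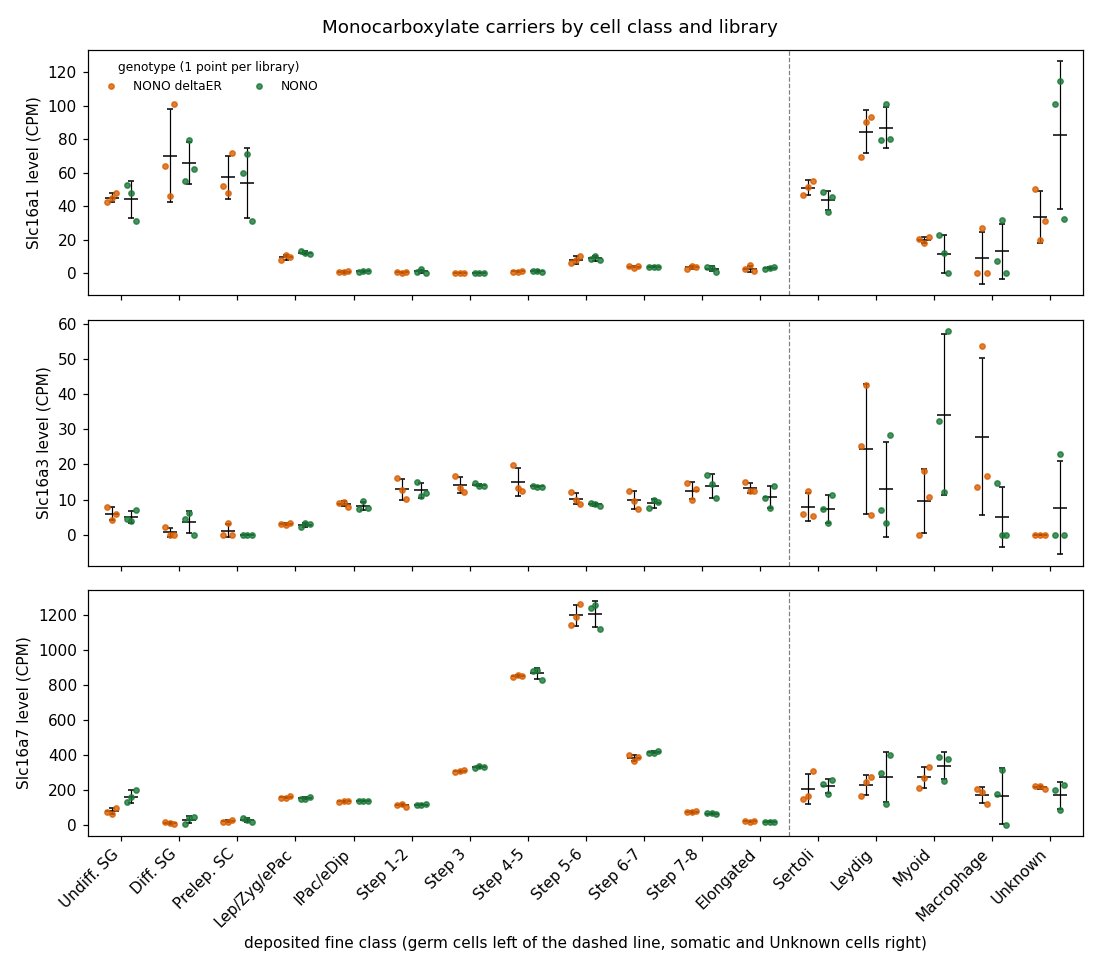
Level of Slc16a1 (top), Slc16a3 (middle) and Slc16a7 (bottom) in CPM, on linear axes of different height, by deposited class; each point is 1 library, NONO deltaER left of NONO, with the mean and SD over 3 libraries in black. Slc16a1 is high at both ends of the axis and near 0 in late spermatocytes, whereas Slc16a7 reaches 1121 to 1266 CPM in steps 5-6.

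The chaperones had different courses. Bsg (chromosome 10, 79704491 to 79711969, plus strand) was abundant in nearly every class, with a mean of 1045 ± 77.3 CPM in preleptotene cells, 43 genes being higher there. Its means were 552 to 1045 CPM in the germ cell classes up to steps 5-6, 507 ± 62.0 CPM in steps 6-7, and then 15.4 ± 1.83 CPM in steps 7-8 and 8.67 ± 4.25 CPM in elongated spermatids. The step from 6-7 to 7-8 was -4.96 ± 0.20 on the log2(CPM + 1) scale and went down in 6 of 6 libraries; it was -2.53 ± 0.21 for Slc16a7 and -2.52 ± 0.39 for Emb. At 2000 UMI per cell, 42.4% of cells of steps 6-7 and 3.2% of cells of steps 7-8 had a UMI of Bsg. Somatic levels of Bsg were 749 ± 10.1 CPM in Leydig cells, 740 ± 294 CPM in myoid cells, 488 ± 104 CPM in the class named Unknown, 422 ± 45.9 CPM in Sertoli cells and 252 ± 91.1 CPM in macrophages.

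Emb (chromosome 13, 117208536 to 117274415, plus strand) had 2 separate places of high level. Sertoli cells had 81.2 ± 12.3 CPM (416 UMI) and myoid cells 78.0 ± 53.4 CPM (74 UMI), and round spermatids of steps 5-6 had 35.6 ± 4.20 CPM. In myoid cells the libraries ran from 0 to 144 CPM. The per-library values of Sertoli cells were 70.1, 99.3 and 68.4 CPM in TD, TE and TF of NONO deltaER, against 90.9, 75.2 and 83.4 CPM in TA, TB and TC of NONO, and the genotypes overlapped. After thinning, 12.2% of Sertoli cells had a UMI of Emb, against 0.9% of macrophages, 1.4% of Leydig cells and 0 of the 145 myoid cells deep enough for thinning. Without thinning, 25 of 454 myoid cells and 298 of 1676 Sertoli cells had one. Emb amounted to 0.284% of the summed level of elongating spermatid markers in Sertoli cells and to 0.134% in steps 5-6, and the libraries of these classes did not overlap in that ratio. It made up 16.2% of the UMI of both chaperones in Sertoli cells, 4.0% in steps 5-6 and 0.13% in steps 4-5.

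In steps 5-6 Emb was 37.9-fold above its level of 0.94 ± 0.28 CPM in steps 4-5. In steps 5-6 the libraries TD, TE and TF of NONO deltaER had 33.5, 35.7 and 42.8 CPM, and the libraries TA, TB and TC of NONO had 36.1, 35.8 and 29.9 CPM, so the genotypes overlapped at the peak. Steps 6-7 had 15.2 ± 0.94 CPM and steps 7-8 had 1.90 ± 0.71 CPM. Emb was thus at its germ cell peak in the class where Slc16a7 was highest, but Slc16a7 was already at 319 CPM in step 3, where Emb had 1.25 ± 0.28 CPM. In 4092 cells of steps 5-6 at 2000 UMI, 257 had both Bsg and Emb, 2971 Bsg alone and 53 Emb alone.

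**Figure D3:**
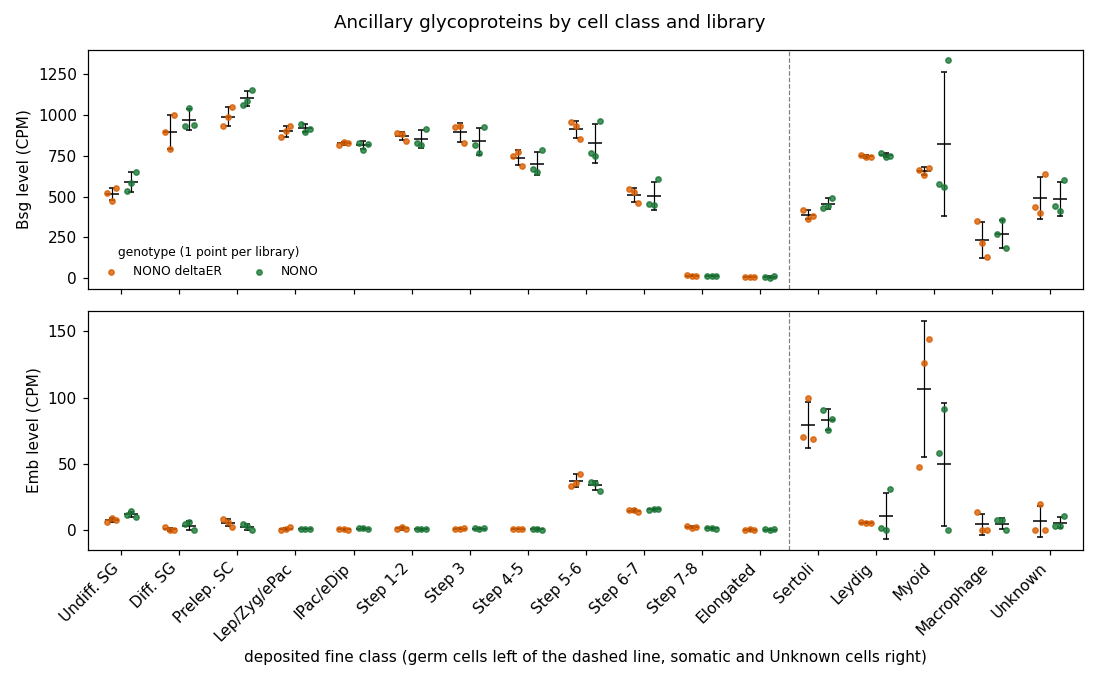
Level of Bsg (top) and Emb (bottom) in CPM, on linear axes, by deposited class; each point is 1 library, NONO deltaER left of NONO, with the mean and SD over 3 libraries in black. Bsg is high in all classes except steps 7-8 and elongated spermatids, and Emb is high in Sertoli and myoid cells and in steps 5-6.

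Slc2a1, Slc16a1 and Emb were each higher in steps 5-6 than in steps 4-5 in 6 of 6 libraries and each lower again in steps 6-7 in 6 of 6. Slc16a7 (0.48, then -1.59 on the log2(CPM + 1) scale) and Bsg (0.27, then -0.78) also rose and fell there in 6 of 6. The course in CPM was thus not particular to the first 3. By rank among all genes the fall was not shared. From steps 5-6 to steps 6-7 the genes higher went from 9751 to 11416 for Slc2a1, 92 to 490 for Slc16a7 and 179 to 399 for Bsg. For Slc16a1 they went from 7155 to 6428 and for Emb from 3728 to 3528, which is no loss of rank. For Slc2a1, Slc16a1 and Emb the 250 bases before the RefSeq transcription starts are shown. They come from the RefSeq promoter table of build GRCm38.p6, which holds 4 of the 7 members, without Slc16a7 and Bsg. Sequences run 5′ to 3′ on the strand of the gene, and capitals mark matches to GGGCGG (the GC box) on either strand. They lie at chr4:119108495-119108744 for Slc2a1, chr3:104638414-104638663 for Slc16a1 and chr13:117220323-117220572 for Emb, all on the plus strand. The RefSeq start of Slc2a1 lies 34 bases inside the GENCODE gene span given above and that of Slc16a1 4 bases before it. That of Emb lies 12037 bases inside the span, so its window is not the one at the outermost GENCODE start.
Slc2a1: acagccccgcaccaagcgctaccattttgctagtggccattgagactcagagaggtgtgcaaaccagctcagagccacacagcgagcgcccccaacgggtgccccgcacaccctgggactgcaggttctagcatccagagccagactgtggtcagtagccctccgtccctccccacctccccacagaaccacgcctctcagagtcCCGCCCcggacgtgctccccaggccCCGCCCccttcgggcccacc
Slc16a1: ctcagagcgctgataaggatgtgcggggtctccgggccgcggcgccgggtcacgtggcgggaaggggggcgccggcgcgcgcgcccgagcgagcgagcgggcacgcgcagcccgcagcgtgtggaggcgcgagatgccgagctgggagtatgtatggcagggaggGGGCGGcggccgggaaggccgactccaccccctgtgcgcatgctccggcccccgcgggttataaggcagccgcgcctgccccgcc
Emb: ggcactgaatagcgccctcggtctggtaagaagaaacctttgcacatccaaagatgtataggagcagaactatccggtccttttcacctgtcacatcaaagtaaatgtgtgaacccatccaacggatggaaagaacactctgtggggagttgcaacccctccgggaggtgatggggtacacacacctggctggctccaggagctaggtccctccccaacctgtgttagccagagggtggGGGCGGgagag
The GC box occurred 2 times before Slc2a1, 1 time before Slc16a1 and 1 time before Emb, and 32.7% of 32851 promoters of that length hold at least 1. The letters TGACG (the core of the cAMP response element), CCAAT (the CCAAT box) and TATAAA (the TATA box) were searched on both strands too and did not occur in the 3 windows; they occur in 17.8%, 33.8% and 12.4% of promoters. The GC content of the windows was 66.4% for Slc2a1, 76.4% for Slc16a1 and 54.8% for Emb, against a median of 52.4%, and they held 13, 37 and 6 CpG, against a median of 6.

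Set against round spermatids of steps 4-5, Sertoli cells had more of 4 members and less of 3, with the same sign in 6 of 6 libraries for each. On the log2(CPM + 1) scale, Sertoli over steps 4-5 was 5.41 ± 0.33 for Emb, 4.50 ± 0.29 for Slc16a1, 1.86 ± 0.73 for Slc2a1 and 1.81 ± 0.43 for Slc2a3 (SD, n = 6 libraries). It was -2.05 ± 0.42 for Slc16a7, -0.93 ± 0.68 for Slc16a3 and -0.77 ± 0.19 for Bsg. The order depends on the germ cell stage chosen. Against Lep/Zygo/ePac spermatocytes, Sertoli cells had less Slc2a3 (-3.41 ± 0.53) and, in 5 of 6 libraries, more Slc16a7 (0.42 ± 0.39). Against undifferentiated spermatogonia Slc16a1 was 0.09 ± 0.31, higher in 4 of 6 libraries, which is within the spread.

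The comparison of NONO deltaER with NONO asked whether the deltaER allele goes with a change of these transcripts in any class. With edgeR's quasi-likelihood test and Benjamini-Hochberg adjustment within a class, 0 of the 75 member and class pairs tested passed the threshold of 0.05, against 0.0154% of all 143072 gene and class pairs. At an unadjusted p under 0.05 there were 4 of 75 pairs (5.33%), against 4.78% of all gene and class pairs. By DESeq2, 1 pair passed, Slc16a7 in undifferentiated spermatogonia. The other 44 of the 119 possible pairs had too few UMI to pass the filter on low counts: Slc2a1 was tested in 3 classes, Emb in 7, Slc16a1 and Slc16a3 in 9 each, Slc2a3 and Slc16a7 in 15 each and Bsg in 17. Fitted log2 fold changes, NONO deltaER over NONO, were above 0 in 34 pairs and below 0 in 41, with a median of -0.02, and 68 of 75 lay within 0.5 of 0. In simulated counts the test recovered 75.8% of 2-fold changes in steps 4-5, 45.2% in undifferentiated spermatogonia and 41.0% in Sertoli cells. It recovered 8.82% in Leydig cells and 3.95% in myoid cells, so a doubling could be missed in each of these classes.

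Slc16a7 in undifferentiated spermatogonia came closest. Libraries TD, TE and TF of NONO deltaER had 73.8, 61.4 and 97.9 CPM, and libraries TA, TB and TC of NONO had 127, 157 and 199 CPM. All NONO deltaER libraries were below all NONO libraries, with means of 77.7 ± 18.6 and 161 ± 36.2 CPM (SD, n = 3 each). The log2 fold change was -1.09 ± 0.21 (SE), with an edgeR adjusted p of 0.0809; in this class 0.0271% of 11064 genes passed the threshold and 16.2% had an unadjusted p under 0.05. The pair passed without the filter on low counts (adjusted p = 3.54e-08), without the 5% of cells with most UMI (0.0119), by DESeq2 (0.00269), without library TA (0.000921) and without library TF (0.00012). It did not pass under the other 7 alternatives, with adjusted p up to 0.225. In those 5 settings the class as a whole had more calls as well: 3.75% of the genes tested without the filter (162 higher and 663 lower), 1.81% without the deepest cells (28 higher and 159 lower), 2.46% by DESeq2, 3.86% without TA and 6.43% without TF.

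Round spermatid transcripts in the undifferentiated spermatogonia moved with this difference. The summed level of 6 round spermatid markers was 208, 188 and 295 CPM in TD, TE and TF of NONO deltaER, and 344, 519 and 664 CPM in TA, TB and TC of NONO, with none of the 6 at 0 over the class. Slc16a7 amounted to 32.7 to 35.4% of that sum in the NONO deltaER libraries and to 30.0 to 37.1% in the NONO libraries. Elongating spermatid markers overlapped, with 5446 to 7838 CPM in NONO deltaER and 4374 to 8991 CPM in NONO, and late spermatocyte markers too, with 581 to 994 CPM in NONO deltaER and 904 to 1465 CPM in NONO. Without the 5% of cells with most UMI, the mean of Slc16a7 in this class was 69.8 CPM over 6 libraries, against 119 CPM with all cells. The part of spermatid RNA or of mixed cells in the Slc16a7 difference was not tested. By sets of libraries with like mitochondrial percent, the difference on the log2(CPM + 1) scale was -0.52 between TF and the mean of TA and TB, and -1.55 between the mean of TD and TE and TC.

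**Figure D4:**
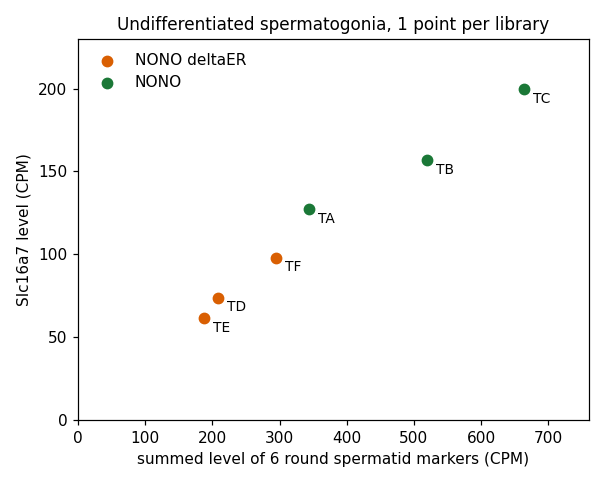
Level of Slc16a7 (CPM, vertical) against the summed level of 6 round spermatid markers (CPM, horizontal) in undifferentiated spermatogonia, with 1 point per library and both axes linear from 0. Libraries TD, TE and TF of NONO deltaER lie at 61.4 to 97.9 CPM of Slc16a7 and 188 to 295 CPM of the markers, and TA, TB and TC of NONO lie above them on both axes.

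The other 3 pairs at an unadjusted p under 0.05 had adjusted p of 0.285 to 0.996. In their classes 11.7% (preleptotene), 3.53% (Lep/Zygo/ePac) and 5.93% (elongated) of all genes had such a p. Slc2a3 in preleptotene cells had 51.9, 54.3 and 42.4 CPM in NONO deltaER and 68.5, 74.4 and 97.2 CPM in NONO, with no overlap. The summed level of 5 late spermatocyte markers in that class was 834 to 934 CPM in NONO deltaER and 1091 to 1268 CPM in NONO, again with no overlap and in the same direction, and its part in the Slc2a3 difference was not tested. That list is 1 of 12, and it holds Ldhc, which is also among the lactate dehydrogenases described below. The log2 fold change of Slc2a3 was -0.68 ± 0.27 (edgeR adjusted p = 0.285), from 128 UMI in all, in the class with the most genes called (19 of 5818, 0.327%). Slc16a1 in Lep/Zygo/ePac cells had 9.44 ± 1.52 CPM in NONO deltaER and 12.1 ± 0.87 CPM in NONO, again with no overlap (-0.38 ± 0.16, adjusted p = 0.996). Slc2a3 in elongated spermatids had 14.3, 17.3 and 7.97 CPM in NONO deltaER and 6.81, 5.42 and 12.1 CPM in NONO, which overlap (0.81 ± 0.37, adjusted p = 0.793). Sertoli markers, 1 of 12 lists summed in that class, had 6.23 to 12.5 CPM in NONO deltaER and 0 to 1.51 CPM in NONO, and their part was not tested.

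In their highest classes Slc2a3 and Slc16a7 differed little between the genotypes. Slc2a3 in IPac/eDip spermatocytes had 2072, 2082 and 2052 CPM in NONO deltaER and 1895, 1882 and 1988 CPM in NONO. Every NONO deltaER library was above every NONO library, by a log2 fold change of 0.11 ± 0.05 (adjusted p = 0.999). Elongating spermatid markers in that class were apart the other way, with 375 to 499 CPM in NONO deltaER and 572 to 987 CPM in NONO, and their part was not tested. Slc16a7 in steps 5-6 averaged 1200.3 ± 62.2 CPM in NONO deltaER and 1207 ± 75.1 CPM in NONO, with a log2 fold change of 0.01. Bsg in preleptotene cells, its highest class, had 932, 988 and 1048 CPM in NONO deltaER and 1060, 1088 and 1153 CPM in NONO, without overlap, and a log2 fold change of -0.18 ± 0.11 (adjusted p = 0.513). Slc16a3 in myoid cells, its highest class, averaged 9.57 ± 9.06 CPM in NONO deltaER and 34.1 ± 22.9 CPM in NONO, with overlap, and had too few UMI to be tested. Bsg in Sertoli cells had 418, 363 and 383 CPM in NONO deltaER and 431, 441 and 494 CPM in NONO, without overlap, and a log2 fold change of -0.22 ± 0.21 (adjusted p = 0.967). Early spermatocyte markers in Sertoli cells were also apart, with 226 to 283 CPM in NONO deltaER and 320 to 379 CPM in NONO, and their part was not tested. Of the 75 pairs tested, 13 had libraries that did not overlap, with NONO deltaER below NONO in 10 and above it in 3. That is 17.3% of the member pairs, against 9.79% of all 143072 gene and class pairs, and 13.3% against 4.33% for NONO deltaER below NONO. The pairs share genes and libraries, with Slc16a7, Slc2a3 and Bsg each in several of the 13, and none passed the test.

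**Figure D5:**
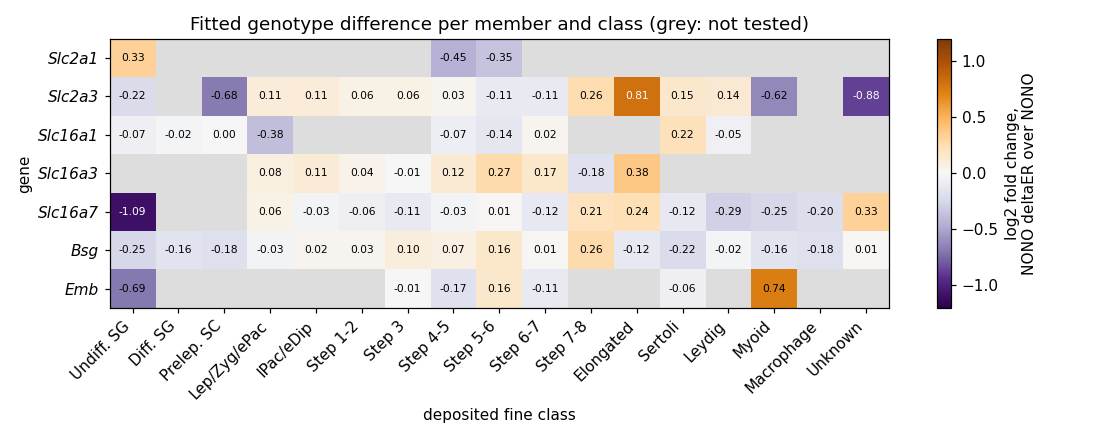
Fitted log2 fold change, NONO deltaER over NONO, for the 7 members (rows) in the 17 deposited classes (columns), with the value printed in each cell and grey for pairs that were not tested. Most cells lie near 0, and the lowest is Slc16a7 in undifferentiated spermatogonia at -1.09.

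Whether the genotype difference itself changed from one class to the next was tested by limma on the log2 ratio of neighbouring classes within each library. Over 12 pairs of classes 0 genes passed the threshold, out of 101014 tests (0%), with an unadjusted p under 0.05 in 3 of 50 member tests and 5.28% of all tests, and a lowest adjusted p of 0.214 for any gene. The members' lowest adjusted p was 0.528, for Slc2a3 between preleptotene and Lep/Zygo/ePac cells, where the difference of effects was -0.77. The step of Slc2a3 into meiosis, Lep/Zygo/ePac over preleptotene, was 5.27 in NONO deltaER and 4.48 in NONO on the log2(CPM + 1) scale.

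The other genes of sugar and lactate handling were taken from 5 lists of 42 genes, of which 38 were measured and 29 were tested in at least 1 class. Of their gene and class pairs, 0 of 46 of other hexose carriers, 0 of 54 of other monocarboxylate carriers, 0 of 25 of the mitochondrial pyruvate carrier, 0 of 38 of lactate dehydrogenases and 0 of 25 of uptake regulators passed the edgeR threshold. At an unadjusted p under 0.05 there were 1, 6, 2, 2 and 0 pairs in the same order (2.17%, 11.1%, 8.0%, 5.26% and 0%), against 4.78% of all gene and class pairs. The list of other monocarboxylate carriers also holds Nptn, which is no carrier, with 14 of the 54 pairs and 0 of the 6. Lactate dehydrogenases, which interconvert lactate and pyruvate, lay below 0 in 29 of 38 pairs with a median log2 fold change of -0.13, against 49.4% of all pairs below 0 and a median of 0.00. By gene, Ldhc was below 0 in 15 of its 16 classes, Ldhb in 5 of 5, Ldha in 9 of 15 and Ldhd in 0 of 2, and these classes share libraries. Ldhc was highest in the class of steps 1-2, at 1443 CPM, and its classes include Sertoli, Leydig, myoid, macrophage and Unknown cells. The part of germ cell RNA in its values there and in spermatogonia was not tested, so the classes are not separate observations. The other hexose carriers lay above 0 in 26 of 46 with a median of 0.02.

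In level, the 4 highest of these genes peaked in spermatocytes or spermatids. Ldhc, the testis form of lactate dehydrogenase, had 1379 ± 249 CPM in NONO deltaER and 1508 ± 321 CPM in NONO in the class of steps 1-2, and Ldha, the muscle form, had 1269.9 ± 102 CPM in NONO deltaER and 1238 ± 20.3 CPM in NONO in IPac/eDip spermatocytes. Mpc2, a subunit of the carrier that brings pyruvate into mitochondria, peaked later, at 1149 CPM over all libraries in steps 6-7, and its partner Mpc1 was highest in the class named Differentiated SG at 119 CPM. Among the other hexose carriers, the fructose carrier Slc2a5 had 919.6 CPM in the class of steps 1-2, next to the high levels of Slc2a3, and Slc2a8 66.3 CPM in the same class. Nptn, an immunoglobulin-family relative of Bsg and Emb, had 277 CPM in the class named Differentiated SG, and Slc16a10, a carrier of aromatic amino acids, 170 CPM in macrophages. The highest regulators were Arrdc3, an arrestin-domain protein, with 131 CPM in myoid cells and the kinase gene Sgk1 with 71.7 CPM in macrophages.

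Genes with the most similar course over the 17 classes were found by Pearson's r of log2(mean CPM + 1) among 15682 genes, as a description. For Slc2a3 these were Dnah8, which encodes a heavy chain of axonemal dynein (r = 0.981), Dnaaf4 (0.980) and Pabpc6 (0.979), and for Slc16a7 Kctd16 (0.963), Dnajb13 (0.957) and Mycbpap (0.954). Bsg was most like Ndufa9, a subunit of respiratory complex I (0.979), Rwdd1 (0.975) and Rtraf (0.972). Slc2a1 had Adcy9 and Slc44a1 (0.952 and 0.951), Slc16a1 had Nfx1, Ogfod3 and Tsr2 (0.942, 0.935 and 0.932), and Emb had Spaar, Col27a1 and Fv1 (0.925, 0.909 and 0.901). Slc16a3 had no course as close, with Gm568 at 0.872, Zmynd15 at 0.800 and Cdk18 at 0.793. Among the members themselves, Slc2a1 and Slc16a1 were the most alike, at 0.857 over 17 classes that share the same libraries.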

How the data were processed

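Whole-testis cells of 6 libraries were analysed, 3 of genotype NONO deltaER and 3 of NONO. The authors deposited raw UMI counts per gene and cell. Counting with Cell Ranger 2.1.1 on mm10 is recorded in the submitters' processing notes; annotation, strand use and later steps were not given in the sources used here. Deposited with them were a mitochondrial percent and 2 levels of cell class per cell. The lowest count was 500 UMI per cell. No doublet caller was run. Libraries are named by the letters of the deposited cell table, which does not tie them to the numbered samples.

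Counts were summed per library and fine class (at least 20 cells) and scaled to CPM. Genotypes were compared with edgeR 4.0.16 (TMM, filterByExpr, robust quasi-likelihood test, Benjamini-Hochberg adjustment within a class, threshold 0.05, R 4.3.3), and differences of effect with limma 3.58.1. DESeq2 1.42.0 was an alternative. The scripts were tested on simulated counts. Gene positions come from GENCODE M21 on mm10; the annotated genes that overlap a member are not among the measured rows. Log2 levels between classes use a pseudocount of 1. Cells were thinned to 2000 UMI for shares of cells with a UMI, leaving out shallower cells, for example 893 of 1676 Sertoli cells.

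All 7 members are named, with any list gene past the threshold, the 2 highest genes of each list, and the 3 genes most like each member among those of at least 10 CPM in a class, of which 1 is not reported here. The members and lists were chosen with earlier results of these data known. Alternatives were other size factors, no filter, DESeq2, a covariate for library sets by mitochondrial percent, cells of at least 1000 UMI, no cells of the highest 5% of UMI, each library left out, and levels as means over cells.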

Additional observations from a re-analysis of the deposited data

How the results depend on the processing

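The count of member and class pairs past the threshold, 0 of 75, was 1 without the filter on low counts, 1 without the 5% of cells with most UMI and 1 by DESeq2, and between 0 and 1 with 1 library left out (1 without TA and 1 without TF); each time the pair was Slc16a7 in undifferentiated spermatogonia, and the cause was not tested. Other size factors, the library-set covariate and cells of at least 1000 UMI gave 0. The 14 pairs with an unadjusted p under 0.05 or with libraries that do not overlap kept their sign under all 12 alternatives. They were picked by those same values, and a pair without overlap can hardly turn when 1 library is left out. The kept sign is therefore no separate support. Sertoli over steps 4-5 kept its sign for all 7 members under the alternatives run. As means over cells it was -0.56 for Bsg and 5.79 for Emb. The sign could not turn with 1 library left out, because it was the same in 6 of 6 libraries. In size, the difference then ran from 5.33 to 5.48 for Emb, 4.44 to 4.59 for Slc16a1, 1.69 to 2.09 for Slc2a1, 1.71 to 1.95 for Slc2a3, -2.17 to -1.96 for Slc16a7, -1.10 to -0.76 for Slc16a3 and -0.81 to -0.71 for Bsg. As means over cells, 18 of 119 levels moved by more than the SD over libraries, and 5 did so without the 5% of cells with most UMI and 0 with cells of at least 1000 UMI. The highest class of Emb was then myoid cells (130 CPM as means over cells, 95.5 CPM without the deepest cells), and that of Slc16a3 macrophages (28.6 CPM with at least 1000 UMI); the other members kept their highest class. Somatic levels of Slc2a1 and Slc16a3 rest on few UMI, and so do those of Emb outside Sertoli cells, where it had 416 UMI. Macrophages had 3 UMI of each of Slc2a1 and Emb. Small differences at so few UMI were not detectable at this depth. No paired analysis was possible because the cell table does not tie a library to the replicate numbers of the labels.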
